A study of Rattus norvegicus with 21 samples.

Results

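A set of 10 genes that mark the connective tissue and vessel-wall cells of the pancreas was followed in rat islets of Langerhans after partial pancreatectomy. They were taken by name from the deposited count table, which lists 28914 gene entries, and each was found there. Pdgfra, Pdgfrb, Acta2, Des, Vim, Fap, Mme, Thy1, Rgs5 and Cspg4 are used as markers of stellate cells, fibroblasts and pericytes, 3 related cell types that are together called mesenchymal.

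Pancreatic stellate cells store vitamin A while quiescent and take on a contractile, matrix-secreting form, often called myofibroblast-like, when activated. Fibroblasts make the collagen scaffold around islets, ducts and acini, and pericytes wrap the islet capillaries and regulate their flow. Cells of all these types sense platelet-derived growth factor (PDGF) through the receptors encoded by Pdgfra and Pdgfrb, and most of the markers are shared by more than 1 of the types, so no single gene of the set identifies a cell.

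Polyadenylated RNA was sequenced from the islets of Lewis rats, an inbred strain, which the labels describe as 4-5 Week. The PX group (n = 11) had 90% of the pancreas removed and was followed for 4 weeks, and the sham group (n = 10) was sham-operated and followed for the same time. The stated aim was to examine how high blood glucose affects islet cells. Each sample carries an animal number, by which libraries are named here (PX 36, Sham 46), and a value called BG, the average before sacrifice, for which no unit is stated. BG averaged 124 ± 23.1 in PX (SD, range 101 to 174) and 94.7 ± 6.0 in sham (SD, range 82 to 104). Apart from the animal number, no label says whether each library is a separate animal, so the p-values reflect the variation among these libraries, which may be technical.

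Total counts per library ran from 4001908 to 13187959 in PX and from 4695195 to 11266015 in sham, and levels are given as CPM (the usual library-size scale for counts) after trimmed-mean (TMM) scaling. The 6 islet hormone genes took 3.88% to 19.8% of counts in PX and 10.1% to 19.2% in sham. Acinar enzyme markers took 4.24% to 36.7% of counts in PX, with the highest share in PX 65, and 0.421% to 15.9% in sham. The TMM factor of PX 65 was 0.359, the lowest of all libraries, which raises its CPM. Its rank among the PX libraries for Des, Mme and the macrophage sum rests on that factor. Among the sham libraries, Sham 46 stood apart, with the highest sham level of 8 of the 9 markers other than Mme, which was near 0 in sham. PX 44 had the lowest PX level of 3 of those 9 markers. The fold changes of the markers were also computed without Sham 46, and without Sham 46, PX 44 and PX 65 together. Fewer cells of a type and less RNA per cell cannot be told apart in bulk tissue.

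Of the 10 markers, 9 were higher in PX and Cspg4 was not called (edgeR quasi-likelihood test, Benjamini-Hochberg adjusted over 13136 genes, threshold 0.05). Over all genes tested, 14.9% were called higher in PX and 16.2% lower. The median log2 fold change of the markers was 1.45, against -0.04 for all genes tested. For Vim, Fap and Mme every PX library lay above every sham library, which held for 1.55% of all genes tested. Mme passed the filter on low counts only through the PX libraries, with none of the sham libraries above the filter level of 1.43 CPM, and Fap passed it in 11 PX and 4 sham libraries, so neither adds to these counts as independent evidence. Scaling by library totals alone moved the median of all genes to -0.28 and gave 990 genes higher and 2227 lower in PX, where TMM gave 1961 higher and 2127 lower. Under library totals 7 markers were called higher, against 7.54% of all genes.

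**Figure D1:**
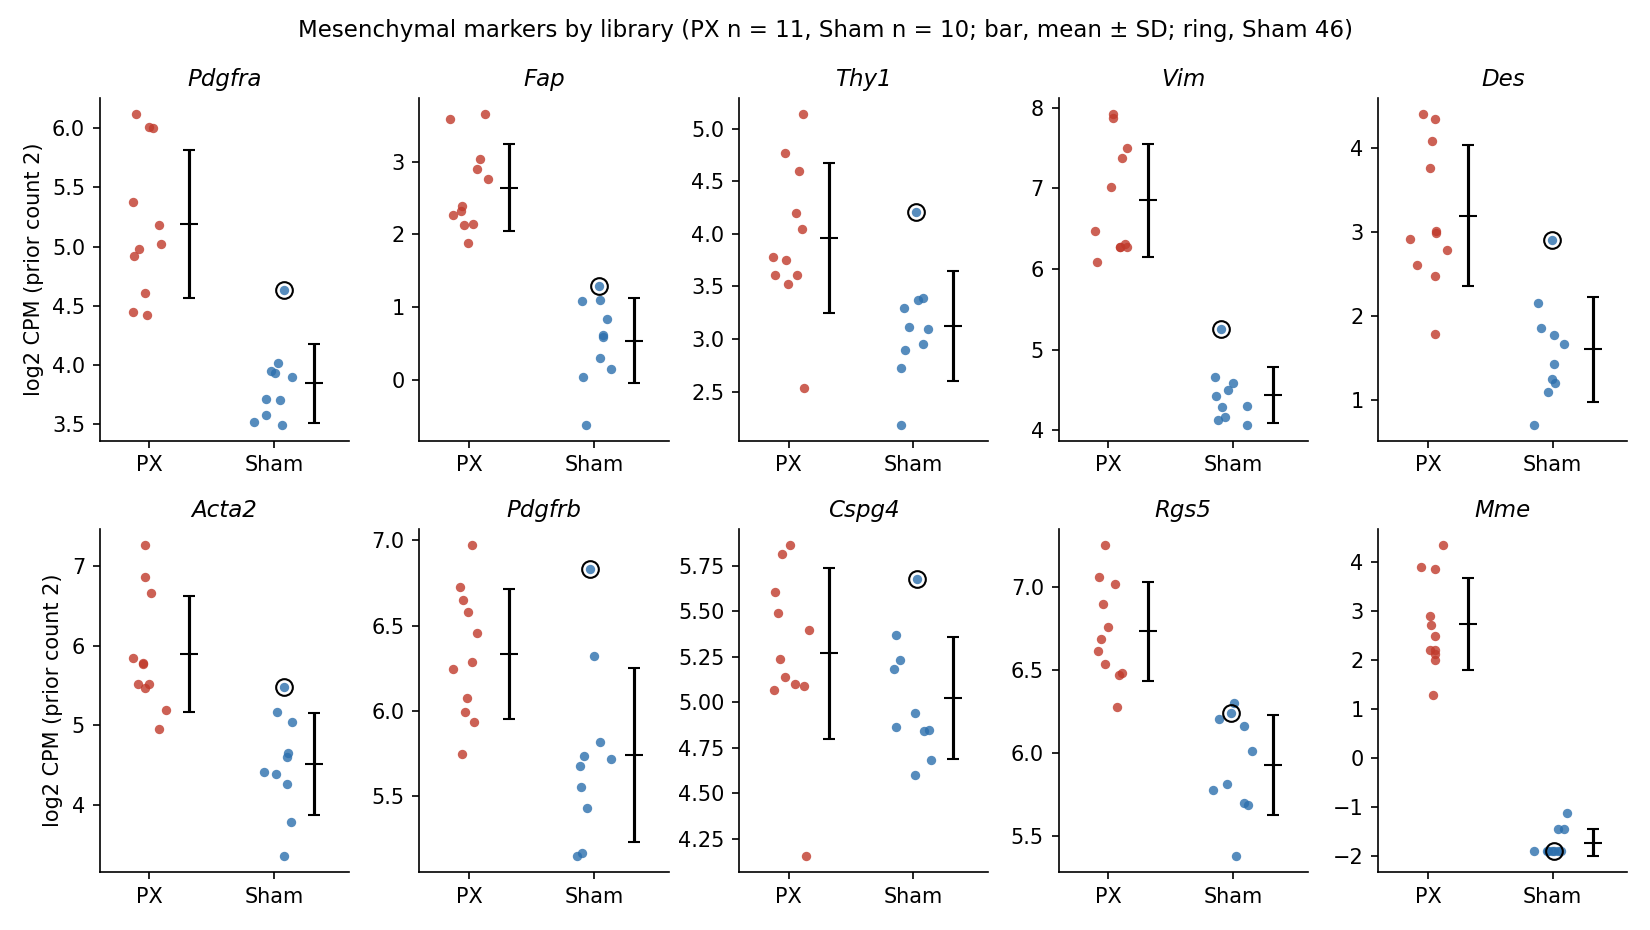
Level of each marker in every library, in log2 CPM with a prior count of 2, for PX (left, n = 11) and sham (right, n = 10) libraries; points are libraries, the bar and whiskers are mean ± SD, and the ring marks Sham 46. The PX points of Vim, Fap and Mme lie wholly above the sham points, while those of Pdgfrb and Cspg4 overlap them widely.

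Pdgfra and Pdgfrb encode the alpha and beta receptor tyrosine kinases for PDGF. Pdgfra marks fibroblasts most strongly, and Pdgfrb marks pericytes and stellate cells as well. Pdgfra (chromosome 14) ranged from 21.1 to 69.3 CPM in PX with a median of 32.1, and from 11.0 to 24.5 CPM in sham with a median of 13.8. The highest PX levels were in PX 62, PX 58 and PX 41, and 8 of 11 PX libraries lay above Sham 46, the highest sham library. The difference was 2.72-fold (log2 fold change 1.45 ± 0.22, SE, edgeR adjusted p = 3.5e-05). An exon of Pdgfra overlaps 1 other entry of the count table, AABR07014881.1, and how reads in the shared stretch were counted is not given in the sources used here.

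Pdgfrb (chromosome 18) ranged from 53.5 to 125 CPM in PX with a median of 77.7, and from 35.2 to 114 CPM in sham with a median of 51.7. The groups overlapped across most of their ranges, since only PX 41 lay above Sham 46, and the next sham library was Sham 24. The difference was 1.46-fold (log2 0.55 ± 0.19, edgeR adjusted p = 0.0292). Without Sham 46 it was 0.79 on the log2 scale (adjusted p = 7.3e-04). The call was lost without Sham 48 (adjusted p = 0.0541) or without Sham 49 (adjusted p = 0.0508), and with library totals only (log2 0.36, adjusted p = 0.289). The test of the ratio of the alpha to the beta receptor is given with the other ratios.

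The receptor ligands moved in the same direction. Of the 4 PDGF ligand genes, 3 were higher in PX and none lower, where 14.9% of all genes tested were higher and 16.2% lower. Pdgfd, whose protein acts mainly on the beta receptor, averaged 9.68 ± 2.70 CPM in PX and 3.41 ± 0.899 CPM in sham, and no PX library was as low as the highest sham library (log2 1.5 ± 0.18, edgeR adjusted p = 2.1e-06). Pdgfc, which acts on the alpha receptor, had a log2 fold change of 1.03 ± 0.31 (adjusted p = 0.0128) and Pdgfa, another alpha-receptor ligand, 0.56 ± 0.16 (adjusted p = 0.0118). Pdgfb, made by endothelial cells to recruit pericytes, was at 0.38 ± 0.18 and was not called (adjusted p = 0.0983). Pdgfc was above the filter level in 8 PX and 5 sham libraries. A single ligand was called with library totals as the scaling (7.54% of all genes) and with the acinar score in the model (9.77%). The same count held in PX 36 to 44 against all sham libraries (8.23%) and in all PX libraries against Sham 46 to 50 (9.01%).

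Acta2, Des and Vim encode the cytoskeletal proteins by which activated stellate cells and contractile mural cells are recognised. Acta2 (chromosome 1) encodes alpha smooth muscle actin, the usual marker of the activated, myofibroblast-like state. It ranged from 30.6 to 154 CPM in PX with a median of 54.1, and from 9.99 to 44.6 CPM in sham with a median of 22.5. PX 41, PX 58 and PX 36 were well above the rest, 8 of 11 PX libraries were above Sham 46, and the other PX libraries fell within the sham range. The difference was 2.74-fold (log2 1.45 ± 0.29, edgeR adjusted p = 7.2e-04).

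The 250 bases before the start of Acta2 are shown because the smooth muscle actin promoter is a textbook target of serum response factor, which binds the CArG box, a 10-base element with a centre of 6 A or T bases. No perfect CArG box was found in this window on either strand. Capitals mark the matches that have 1 other base in the centre, at -134 to -125 and at -84 to -75 from the start (RefSeq, GRCr8, chr1:241172504-241172753, minus strand), and they overlap no other motif searched.
Acta2: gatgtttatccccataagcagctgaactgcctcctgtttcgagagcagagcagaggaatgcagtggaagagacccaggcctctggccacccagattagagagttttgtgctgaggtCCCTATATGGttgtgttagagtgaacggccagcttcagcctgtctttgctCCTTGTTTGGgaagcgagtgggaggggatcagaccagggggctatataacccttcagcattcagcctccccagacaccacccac
Among 33469 rat promoters of the same length, 1.5% held a perfect CArG box and 8.08% one with 1 other base, and Acta2 was the only one of the 8 markers with a promoter sequence that held the looser form. Promoters of Pdgfrb and Thy1 were not used here.

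Des (chromosome 9) encodes desmin, the intermediate filament of muscle, stellate cells and pericytes. It ranged from 3.19 to 21 CPM in PX with a median of 7.65, and from 1.36 to 7.20 CPM in sham with a median of 2.67. PX 62, PX 58 and PX 65 were highest, Sham 46 was again the highest sham library, and 7 of 11 PX libraries lay above it. The difference was 3.39-fold (log2 1.76 ± 0.33, edgeR adjusted p = 3.3e-04).

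Vim (chromosome 17) encodes vimentin, the intermediate filament of most mesenchymal cells, which macrophages and endothelial cells also express. It ranged from 67.6 to 243 CPM in PX with a median of 88.5, and from 16.5 to 38.1 CPM in sham with a median of 20.3. The groups did not overlap, and the sham libraries other than Sham 46 lay within 16.5 to 25.1 CPM. The PX libraries fell in a broad range, with PX 58 and PX 62 highest and PX 38 lowest. The difference was 5.84-fold (log2 2.55 ± 0.25, edgeR adjusted p = 3.8e-07), the largest of the markers other than Mme.

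The Vim promoter is shown for the motif TATAAA, which was searched only in this exact form. Vim was the only one of the 8 that held it on either strand, marked in capitals at -82 to -77 (RefSeq, GRCr8, chr17:81577011-81577260, plus strand). The match overlaps no other motif searched. Related forms, such as the tatataa in the Acta2 sequence above, were not searched.
Vim: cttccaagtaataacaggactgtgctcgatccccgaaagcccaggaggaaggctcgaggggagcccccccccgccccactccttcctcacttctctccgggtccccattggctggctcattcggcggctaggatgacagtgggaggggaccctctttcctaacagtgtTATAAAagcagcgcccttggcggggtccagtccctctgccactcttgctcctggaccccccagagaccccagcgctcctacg
TATAAA was found in 12.9% of the 33469 promoters. The motif CANNTG was present in 4 of the 8 marker promoters and in 65.5% of all, and GGGCGG in 5 of the 8 and in 30.5% of all, each searched on both strands.

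Fap, Mme and Thy1 encode proteins of the cell surface. Fap (chromosome 3) encodes fibroblast activation protein, a serine protease of activated fibroblasts in scars and tumours. It ranged from 3.40 to 12.4 CPM in PX with a median of 4.99, and from 0.381 to 2.18 CPM in sham with a median of 1.25. All PX libraries lay above all sham libraries, with PX 41 and PX 62 highest. The difference was 5.01-fold (log2 2.33 ± 0.28, edgeR adjusted p = 2.8e-06), and it rests on 504 counts over the PX libraries and 100 counts over the sham libraries.

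Mme (chromosome 2) encodes neprilysin, a metalloprotease that degrades peptides at the cell surface and marks some fibroblasts as well as epithelial cells. It ranged from 2.18 to 20.2 CPM in PX with a median of 5.36, and from 0 to 0.190 CPM in sham with a median of 0. It had 565 counts over the 11 PX libraries, each of which held some, and 3 counts over the 10 sham libraries, 1 in each of Sham 21, Sham 47 and Sham 49. PX 41, PX 65 and PX 38 were highest and PX 70 lowest. The pooled ratio was 187-fold (95% exact conditional interval 63.7 to 911, which covers counting error only). The fitted log2 fold change of 7.14 ± 0.58 (edgeR adjusted p = 2.9e-08) depends on the prior count and is no bound. In the authors' deposited table the log2 fold change of Mme is 6.05.

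The Mme promoter is shown for its CG dinucleotides, marked in capitals. It holds 25 of them in 250 bases, against a median of 5 over all promoters (RefSeq, GRCr8, chr2:149872247-149872496, plus strand).
Mme: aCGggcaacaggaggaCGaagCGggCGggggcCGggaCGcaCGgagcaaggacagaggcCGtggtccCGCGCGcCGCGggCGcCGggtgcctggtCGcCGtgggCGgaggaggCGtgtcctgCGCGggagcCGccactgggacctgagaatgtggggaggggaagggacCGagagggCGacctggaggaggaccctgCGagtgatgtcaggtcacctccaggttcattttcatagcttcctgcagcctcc
The other 7 marker promoters held between 3 CG dinucleotides, in Acta2, and 14, in Cspg4. In overall G and C content Mme, at 70.4%, was close to Des, at 68.8%, and the other 6 ranged from 47.2% to 62.4%, against a median of 51.2% over all promoters. These are reference sequences and carry no measurement of these islets.

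Thy1 (chromosome 8) encodes CD90, a membrane glycoprotein of fibroblasts, neurons and, in rats, thymocytes. It ranged from 5.53 to 35.1 CPM in PX with a median of 13.5, and from 4.27 to 18.2 CPM in sham with a median of 8.32. Only PX 58, PX 62 and PX 41 lay above Sham 46, and PX 44 lay between Sham 49 and Sham 50, the lowest sham libraries. The difference was 1.90-fold (log2 0.93 ± 0.27, edgeR adjusted p = 0.0104). The call was lost with library totals only (log2 0.71, adjusted p = 0.0817) and when the acinar score was in the model (0.87, adjusted p = 0.0581). T cell transcripts were more abundant in the same group, although the defining T cell genes Cd3d, Cd3e and Cd3g had too few counts to be tested, with 74, 68 and 46 counts over the PX libraries and 4, 8 and 2 over the sham libraries. Cd4, which rat macrophages also carry, and Lck, the T cell kinase, were called higher (log2 1.34 ± 0.23 and 1.66 ± 0.32, edgeR adjusted p = 1.1e-04 and 4.5e-04). The T cell markers summed to 15 to 78.6 CPM in PX and to 8.51 to 18.4 CPM in sham, and their part in the Thy1 difference was not tested.

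Rgs5 and Cspg4 are the members most closely tied to pericytes. Rgs5 (chromosome 13) encodes a regulator of G-protein signalling. It ranged from 77.3 to 152 CPM in PX with a median of 103, and from 41.3 to 78.6 CPM in sham with a median of 60.1. The groups overlapped only through PX 58, which lay just under Sham 22, the highest sham library, and Sham 46 did not stand out. The difference was 1.75-fold, small but even across libraries (log2 0.81 ± 0.13, edgeR adjusted p = 5.7e-05). PX 58, among the highest libraries for Vim, Des, Thy1 and Pdgfra, was the lowest PX library for Rgs5.

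Cspg4 (chromosome 8) encodes NG2, a proteoglycan on the pericyte surface. It ranged from 17.6 to 57.9 CPM in PX with a median of 37.5, and from 24 to 50.8 CPM in sham with a median of 29.7. PX 44 was below every sham library, and 2 PX libraries were above Sham 46. The log2 fold change was 0.27 ± 0.17 (1.21-fold) and was not called (edgeR adjusted p = 0.220). It was called without PX 44 (0.41, adjusted p = 0.0314), without Sham 46, PX 44 and PX 65 (0.54, adjusted p = 0.00283) and by limma voom with quality weights (0.42, adjusted p = 0.00853). In the authors' deposited table its log2 fold change is 0.23 with an adjusted p of 0.328. In that table the log2 fold changes of Pdgfrb and Thy1 are 0.59 and 0.87 with adjusted p of 0.0166 and 0.0230, and that of Vim is 2.42.

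**Figure D2:**
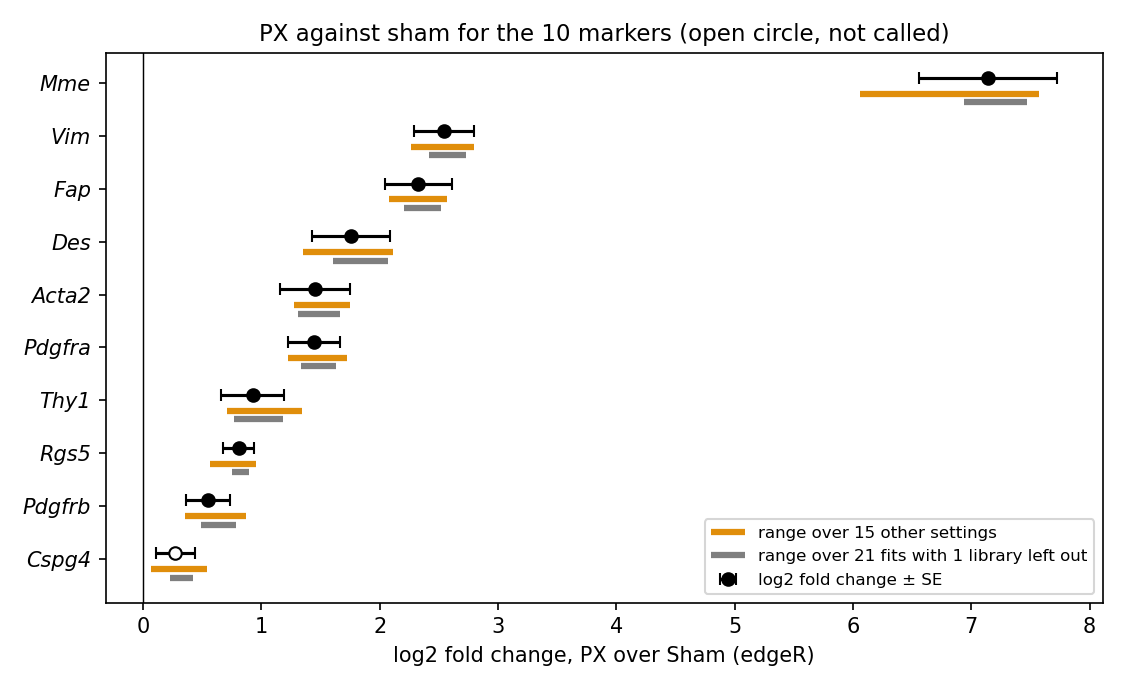
Log2 fold change of each marker, PX over sham, from the edgeR fit of 11 PX and 10 sham libraries. Error bars are ± 1 SE and the open circle is the marker that was not called. The lines below each point give the range over 15 other settings and over 21 fits with 1 library left out. Vim (2.55) and Fap (2.33) lie above Des, Acta2 and Pdgfra, and Pdgfrb (0.55) and Cspg4 (0.27) lie lowest.

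Levels of different genes were compared per kilobase of the gene length in the count table. On this scale Rgs5 was the most abundant marker, with 132 ± 28 CPM per kb in PX and 75.5 ± 15.4 CPM per kb in sham (SD). Vim came next in PX, at 69.4 ± 35.7 CPM per kb, and after Acta2 in sham, at 11.9 ± 3.40 CPM per kb. Acta2 had 48.3 ± 28 CPM per kb in PX and 17.7 ± 7.53 CPM per kb in sham, so Vim was the higher of the pair in PX and Acta2 in sham. Their ranges overlapped in both groups. Pdgfrb (14.6 ± 3.87 and 9.95 ± 4.16 CPM per kb in PX and in sham) and Thy1 (12.8 ± 6.38 and 6.77 ± 2.79) formed the middle of the order and did not differ beyond their spread. Pdgfra, Cspg4 and Des followed in PX with 6.07 ± 2.75, 4.95 ± 1.43 and 4.79 ± 2.87 CPM per kb, also within their spread, and Fap and Mme were lowest with 2.84 ± 1.34 and 2.49 ± 1.83. In sham Cspg4 had 4.09 ± 1.02 and Pdgfra 2.22 ± 0.606 CPM per kb, and the lowest were Fap with 0.559 ± 0.248 and Mme with 0.012 ± 0.021.

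The ratio of each marker to Pdgfrb within a library was used to ask whether the markers changed by unequal amounts; with 0.5 added to each count it does not depend on how libraries are scaled, and it was chosen after the data were seen. For 8 markers, all but Mme, the log2 ratio was compared between the groups by a two-sided permutation test of means with 100000 resamples, adjusted over the 8 ratios. All 8 ratios share the Pdgfrb count, so they are not separate findings. Pdgfrb was known to have a small log2 fold change, 0.55, so the ratios largely restate the fold changes given above. Their p-values add no independent evidence. Fap also passed the filter on low counts in only 4 sham libraries. Relative to Pdgfrb, Vim was higher in PX by 1.83 and Fap by 1.70 on the log2 scale (permutation p = 1e-05, the smallest that these resamples can give, adjusted p = 4e-05 for each). Des was higher by 1.07 (adjusted permutation p = 0.00777), Acta2 by 0.79 (0.00777) and Pdgfra by 0.76 (0.00523). The ratio of Cspg4 to Pdgfrb was lower in PX, at a mean log2 ratio of -1.07 ± 0.278 in PX and -0.72 ± 0.213 in sham (SD; difference -0.35, adjusted p = 0.00777). Thy1 and Rgs5 had differences of 0.26 and 0.21 that did not pass (adjusted permutation p = 0.308 and 0.309). Leaving out Sham 46 changed none of these calls, and the Cspg4 difference was then -0.40 (adjusted p = 0.00405).

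Correlations between the markers were examined within each group. Pearson and Spearman correlations of log2 CPM were computed for 45 marker pairs within the PX libraries, 36 pairs within sham, where Mme was left out, and for the macrophage, endothelial and acinar marker scores, 138 relations in all, with p-values adjusted over 276 permutation tests. In PX, 39 of 45 pairs had a positive r, with a median of 0.435, and 3 pairs passed by both measures. The share of positive r over pairs of other genes was not computed. Pdgfra and Fap had r = 0.937 and rho = 0.936 (adjusted permutation p = 0.00368 and 0.00828), and r was 0.939 without the 2 libraries farthest from the median, PX 58 and PX 62. Des and Vim had r = 0.898 and rho = 0.882 (adjusted permutation p = 0.00828 and 0.0130; r = 0.796 without those libraries). Pdgfrb and Cspg4 had r = 0.807 and rho = 0.855 (adjusted permutation p = 0.0233 for each; r = 0.646 without PX 41 and PX 44).

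In sham, Pdgfrb and Cspg4 were the closest pair and ranked the 10 libraries identically (r = 0.960, rho = 1.0, adjusted permutation p = 0.00138 for each), with r = 0.891 without Sham 24 and Sham 46. No other of the 36 sham pairs passed. Without Sham 46 and Sham 50, r fell from 0.851 to 0.455 for Pdgfra with Vim, and from 0.826 to 0.770 for Pdgfra with Des. In PX, Rgs5 had an r of 0.218 with Pdgfrb and of -0.0335 with Pdgfra, and none of its relations passed. Mme likewise passed with no other marker, its r ranging up to 0.531 with Pdgfrb. Whether any correlation differed between the groups was not tested.

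**Figure D3:**
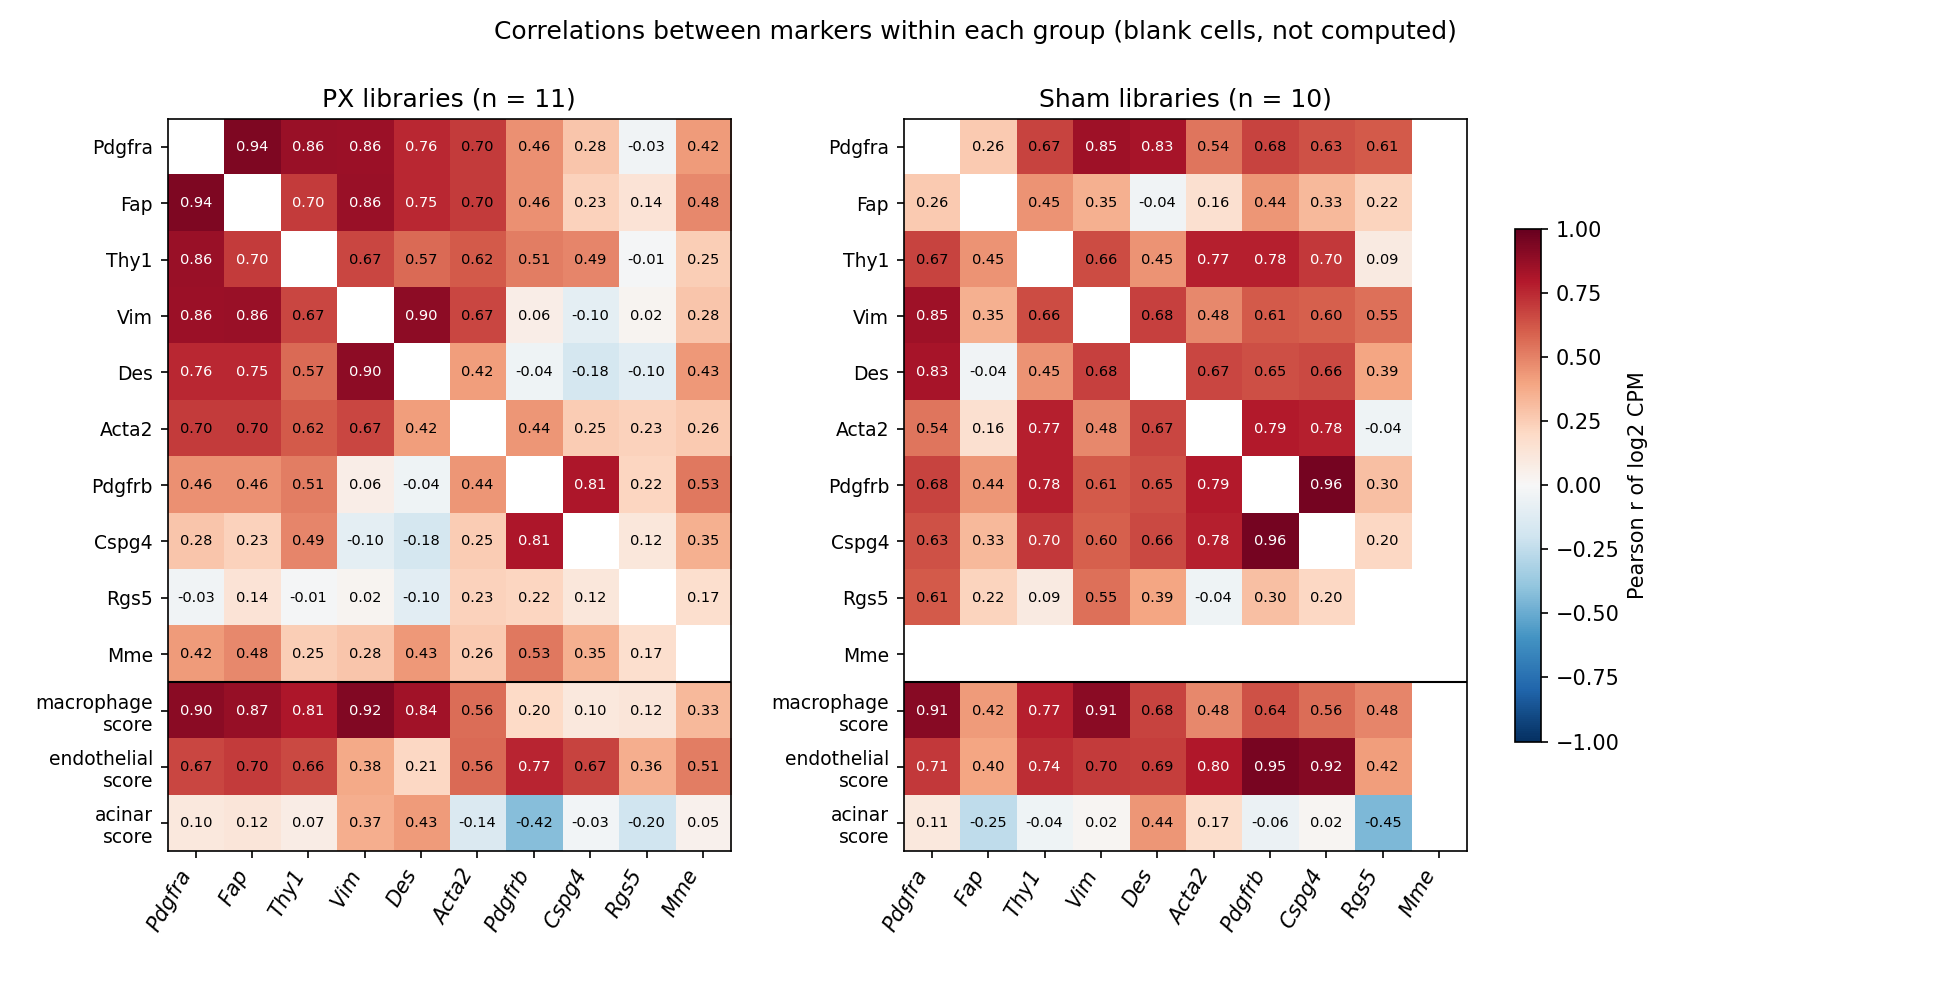
Pearson r of log2 CPM between markers, and between markers and the macrophage, endothelial and acinar scores, within the 11 PX libraries (left) and the 10 sham libraries (right); colour gives r, and blank cells were not computed. In PX the fibroblast markers Pdgfra and Fap (0.937) and the filaments Des and Vim (0.898) are closest, and Pdgfrb with Cspg4 is high in both groups (0.807 in PX, 0.960 in sham).

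Scores of other cell types were set against the markers in the same way. The macrophage score, the mean log2 CPM of 14 marker genes, had r = 0.899 with Pdgfra (rho = 0.827, adjusted permutation p = 0.00828 and 0.0324) and r = 0.922 with Vim (rho = 0.709, adjusted permutation p = 0.00828 and 0.112) among the PX libraries. Without PX 58 and PX 62 these r were 0.796 and 0.843. By r the macrophage score also passed with Fap, Des and Thy1 (0.868, 0.838 and 0.812, adjusted permutation p = 0.0144, 0.0233 and 0.0233). By rho it passed with none of them (adjusted permutation p = 0.071, 0.144 and 0.112). Its r with Rgs5 was 0.121 and with Cspg4 0.104 over all PX libraries, and 0.724 and 0.355 without the same 2 libraries, so the contrast of Rgs5 with Pdgfra and Vim rests on PX 58 and PX 62. In sham the macrophage score had r = 0.911 with Pdgfra and r = 0.905 with Vim (rho = 0.794 and 0.697, adjusted permutation p = 0.0233 and 0.0304 for r, 0.0723 and 0.135 for rho), and these r were 0.563 and 0.625 without Sham 46 and Sham 50. The endothelial score in sham had r = 0.948 with Pdgfrb and r = 0.917 with Cspg4 (rho = 0.915 for each, adjusted permutation p between 0.00828 and 0.0130), falling to 0.772 and 0.727 without Sham 24 and Sham 46. The same relations in PX, at 0.765 and 0.672, did not pass (adjusted permutation p = 0.0573 and 0.144). Without PX 41 and PX 44 they were 0.387 and -0.202. The acinar score passed with no marker in PX, with r between -0.424 for Pdgfrb and 0.429 for Des.

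The genes whose levels followed each marker most closely were found among 10662 genes with at least 5 CPM on average, by Pearson r over the 21 libraries after each group's mean was removed. For Pdgfra they were Mmp2, a matrix metalloprotease (r = 0.97), Dpt, the matrix protein dermatopontin (0.95), and Pltp, a phospholipid transfer protein (0.93). Fap was followed by Plxdc2, the matrix protein Thbs2 and the collagen gene Col1a2 (0.83, 0.81 and 0.80). Vim was followed by Itgax and Mrc1, both known from macrophages and dendritic cells, and by the proton channel gene Hvcn1 (0.96, 0.94 and 0.94), and Des by Nek6, Jak1 and Itgax (0.92, 0.88 and 0.87). For Cspg4 the closest were Notch3, the pericyte Notch receptor, and the basement membrane genes Col4a1 and Lama5 (0.94, 0.92 and 0.91).

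Pdgfrb was followed by Podxl, which encodes the sialomucin podocalyxin, then by Arap3 and Dysf (0.95, 0.92 and 0.92), none of which differed between the groups by the test (log2 fold changes of 0.28, 0.08 and 0.10). Acta2 was followed by Pcdh18, Aplnr and Slit3 (0.84, 0.83 and 0.82), and Thy1 by Adam12, Smurf1 and Pik3cd (0.92, 0.91 and 0.91). Among the genes closest to Rgs5 were Gcnt2 and Sgk3, each with an r of 0.77. Those of Mme were the keratin gene Krt17, the laminin gene Lamb3 and Tf, which encodes transferrin (0.82, 0.73 and 0.73). These r are descriptions of the same 21 libraries.

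Whether the markers followed BG was examined within each group. Within PX, none of the 10 markers had a called slope (edgeR quasi-likelihood test over 14442 genes), and none of all genes tested did (0%). At an unadjusted p under 0.05, 1 marker and 12.2% of all genes passed. That marker was Mme, with a log2 slope of 0.29 ± 0.087 per 10 BG units (unadjusted p = 0.00515, adjusted p = 0.340). PX 65 and PX 41 had the highest BG of the PX libraries, 174 and 156. Their Mme levels were 14.6 CPM (69 counts, TMM factor 0.359) and 20.2 CPM. PX 57, the next with 140, had 4.37 CPM, while PX 38 with a BG of 119 had 14.3 CPM, so Mme did not follow BG in order. The other 9 slopes in PX lay between -0.003 for Thy1 and 0.11 for Acta2. DESeq2, limma voom and limma voom with quality weights likewise called none of the 10, although DESeq2 called 27 of all genes and voom with quality weights 35.

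Within sham, where BG spanned only 82 to 104, none of the 9 markers tested was called (edgeR over 13766 genes), and none of all genes was (0%). Rgs5 had a slope of 0.42 ± 0.12 (unadjusted p = 0.00465, adjusted p = 1.0), and 0.872% of all genes had an unadjusted p under 0.05. The difference between the PX and sham slopes, a test added after the data were seen, was called for no marker, with Rgs5 at -0.34 ± 0.14 (edgeR unadjusted p = 0.0244, adjusted p = 1.0; 1.10% of all genes at an unadjusted p under 0.05). The PX libraries with a BG of 121 or less, set against all sham libraries, had 9 markers called higher, where 12% of all genes were, with log2 fold changes of 1.5 for Pdgfra, 2.55 for Vim and 0.59 for Pdgfrb.

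Other genes of the same cell types are described by counts from lists chosen for this purpose. The lists were chosen with earlier results of these data known, so the counts are descriptions and not independent evidence. Over all genes tested, 14.9% were called higher in PX and 16.2% lower. All 13 other fibroblast genes that were tested were higher in PX, with a median log2 fold change of 2.15. Mfap5 and Prrx1 passed the filter mainly through PX, with 2 sham libraries each above its level. Mfap5, a microfibril protein of fibroblasts, was at 3.54 ± 0.37 (edgeR adjusted p = 5.5e-07) and S100a4, which macrophages express too, at 3.30 ± 0.48 (adjusted p = 3.1e-05). The smallest were Pdpn, podoplanin, and Pi16, a marker of adventitial fibroblasts, at 0.84 ± 0.30 and 0.85 ± 0.28 (adjusted p = 0.0329 and 0.0215).

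Of 10 activated stellate cell genes tested, 9 were higher in PX, with a median of 2.47. Spp1, osteopontin, which macrophages also secrete, averaged 229 ± 247 CPM in PX and 4.74 ± 4.93 CPM in sham (log2 5.57 ± 0.77, edgeR adjusted p = 2.2e-05). Postn, periostin, averaged 91.0 ± 65.8 CPM in PX and 2.57 ± 3.03 CPM in sham (5.08 ± 0.55, adjusted p = 1.8e-06), and no PX library was as low as the highest sham library for either gene. Tgfbi, a matrix protein induced by transforming growth factor beta, was at 1.15 ± 0.24 (adjusted p = 9.1e-04). Loxl2, a collagen crosslinking enzyme, had 84.0 ± 13.4 CPM in PX and 81.2 ± 7.15 CPM in sham and was not called (0.05 ± 0.09, adjusted p = 0.703).

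Genes of quiescent stellate cells were higher too, in 4 of 6 tested, with a median of 0.71. Lrat, which makes the retinyl esters stored by these cells, was at 3.85 ± 0.36 (edgeR adjusted p = 1.6e-07), from 233 counts over the PX libraries and 15 over the sham libraries. Like Mme it passed the filter only through PX, with no sham library above the filter level, so its call adds no evidence to the count of 4. Fabp4, a fatty acid binding protein that endothelial cells and macrophages also express, was at 1.63 ± 0.26 (adjusted p = 7e-05). Ngfr, the low-affinity neurotrophin receptor, was at 0.42 ± 0.23 and was not called (adjusted p = 0.165). The count of 4 fell to 2 without PX 58.

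Among 11 other pericyte genes, 8 were higher in PX, with a median of 0.67. Anpep, aminopeptidase N, was at 1.66 ± 0.29 (edgeR adjusted p = 1.8e-04), and Ndufa4l2 at 0.97 ± 0.37 was not called (adjusted p = 0.0512). Notch3, which followed Cspg4 closely, and Steap4 were not called either, at 0.22 ± 0.22 and -0.02 ± 0.16 (adjusted p = 0.471 and 0.932). With library totals only, 3 of the 11 were called, against 7.54% of all genes.

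Of 8 smooth muscle contractile genes tested, 5 were higher and 1 lower in PX, with a median of 0.70. Tagln, transgelin, averaged 40.3 ± 19.1 CPM in PX and 13.7 ± 8.74 CPM in sham (log2 1.56 ± 0.29, edgeR adjusted p = 3.6e-04), and Tpm2, a tropomyosin, was at 1.47 ± 0.37 (adjusted p = 0.00408). Synpo2, an actin-bundling protein of muscle, averaged 50.1 ± 23.2 CPM in PX and 81.6 ± 19.7 CPM in sham (-0.71 ± 0.21, adjusted p = 0.0149). Smtn, smoothelin, was at 0.15 ± 0.22 and was not called (adjusted p = 0.629).

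**Figure D4:**
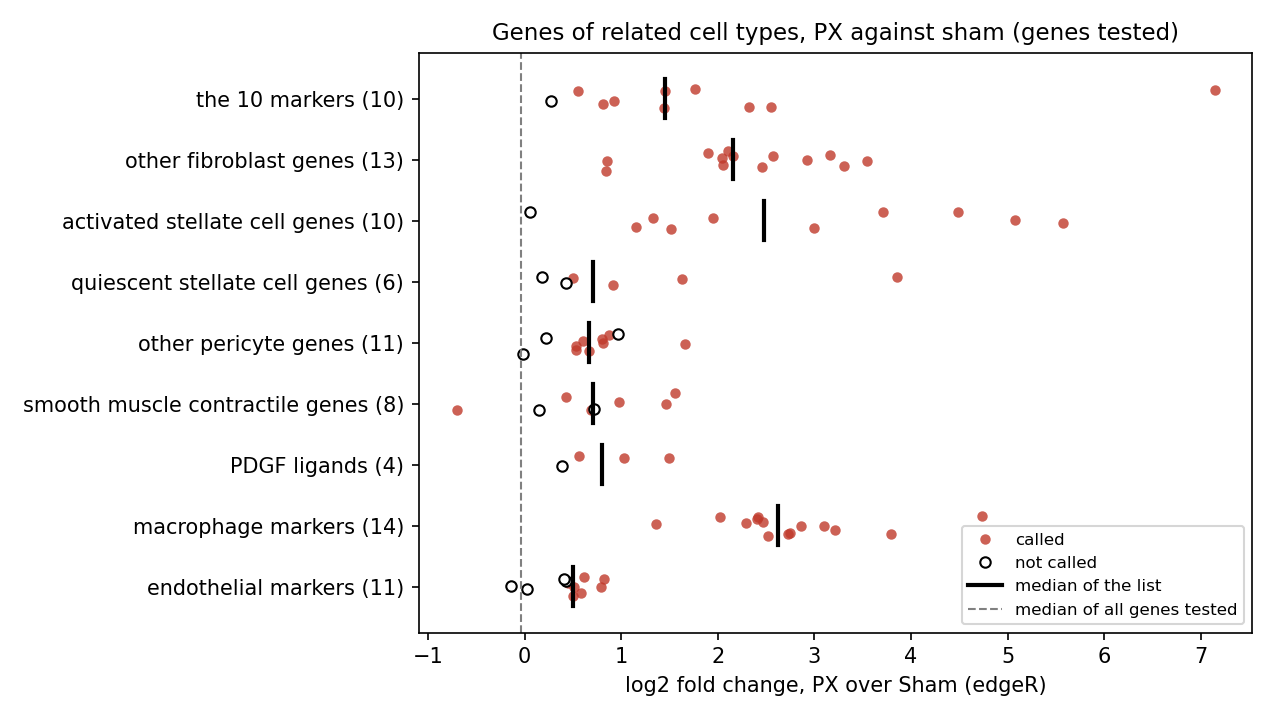
Log2 fold change, PX over sham, of the markers and of every tested gene in the fibroblast, stellate cell, pericyte, smooth muscle, PDGF ligand, macrophage and endothelial lists. The other lists are not drawn. Each point is a gene, the number tested stands beside each list name, and the dashed line is the median of all genes tested (-0.04). Macrophage genes (median 2.62), activated stellate cell genes (2.47) and other fibroblast genes (2.15) lie farthest to the right, and pericyte and endothelial genes (0.67 and 0.50) lie nearer the line.

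Markers of other cells moved in the same libraries. Their lists were also chosen with earlier results known, and 14.9% of all genes tested were called higher in PX. All 14 macrophage markers tested were higher in PX, with a median of 2.62, and they summed to 211 to 1918 CPM in PX and to 48.8 to 152 CPM in sham. The highest sums were in PX 62, PX 58 and PX 65, and in Sham 46 among the sham libraries. As a share of counts the macrophage markers took 0.0397% in PX 65, below the 0.0760% in PX 41 and 0.0550% in PX 36. Lyz2, lysozyme, was at 4.74 ± 0.61 and Tyrobp, which only 1 sham library had above the filter level, at 3.80 ± 0.57 (edgeR adjusted p = 1.1e-05 and 3.7e-05), and the smallest were Cd163 at 1.36 ± 0.30 and C1qa at 2.02 ± 0.34 (adjusted p = 0.00138 and 1.3e-04). Of 11 endothelial markers, 7 were higher and none lower, with a median of 0.50; Tie1 was at 0.82 ± 0.12 and Esam at 0.79 ± 0.12 (adjusted p = 2e-05 and 2.1e-05), while Kdr and Flt1 at -0.15 ± 0.14 and 0.02 ± 0.13 were not called (adjusted p = 0.448 and 0.924). The endothelial markers summed to 756 to 1123 CPM in PX and to 524 to 1059 CPM in sham. Since macrophages and endothelial cells express Vim, their part in its difference was not tested, nor was their part in the other differences.

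Of 13 acinar markers, 2 were called higher in PX, Ctrb1 at 2.0 ± 0.74 and Cpb1 at 1.82 ± 0.68 (edgeR adjusted p = 0.0458 and 0.0450). Bhlha15 and Cela1, at 0.20 ± 0.19 and 1.19 ± 0.68, were not called (adjusted p = 0.433 and 0.192). When the acinar score was added to the model, the log2 fold changes of the 10 mesenchymal markers ranged from 0.28 for Cspg4 to 7.08 for Mme, and 7 were called higher, against 9.77% of all genes. Pdgfrb lost its call there (0.61, adjusted p = 0.0518), as Thy1 did. The mesothelial marker Msln was lower, at 1148 ± 235 CPM in PX and 1571 ± 190 CPM in sham (log2 -0.45 ± 0.11, adjusted p = 0.00387), as was Gpm6a (-0.76 ± 0.22, adjusted p = 0.00961), while Upk3b, Lrrn4 and Wt1, the other mesothelial markers, had too few counts to be tested. Their counts ran the other way, with 17, 22 and 62 over the PX libraries and 6, 4 and 3 over the sham libraries, and 2 mesothelial markers were called higher when no filter was applied.

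The libraries of each group fall into runs of animal numbers, and the comparison was repeated on subsets taken by those runs. In PX 36 to 44 (5 libraries) against all sham libraries 8 markers were higher, against 8.23% of all genes, with Thy1 not called (log2 0.82, edgeR adjusted p = 0.0983). In PX 57 to 70 (6 libraries) against all sham libraries 8 were higher, against 21.7% of all genes, with Pdgfrb not called (0.40, adjusted p = 0.149). Against Sham 46 to 50 alone, all PX libraries had 7 markers higher, against 9.01% of all genes, with Pdgfrb and Thy1 not called (0.50 and 0.89, adjusted p = 0.224 and 0.148). With the other 5 sham libraries as the comparison 9 were higher, against 15.7% of all genes. Pdgfra, Acta2, Des, Vim and Rgs5 were called in each of the comparisons by run. So were Fap and Mme, whose calls add no independent evidence because of how they passed the filter. Without Sham 46, the log2 fold changes of all but Mme were larger, among them 1.63 for Pdgfra, 2.07 for Des, 2.73 for Vim and 1.18 for Thy1 (adjusted p = 8.3e-06, 3.8e-05, 1.6e-07 and 0.00138).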

How the data were processed

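RNA from 11 PX and 10 sham islet libraries was analysed; groups, animal numbers and BG came from the sample titles. The tools named per the submitters' processing notes are FastQC, Subread, featureCounts and limma. No version of them, no strand setting for counting and no genome build appears in the sources used here, so antisense overlaps could affect a count. The deposited counts are whole reads per gene without normalization, as the table's featureCounts columns show per the file headers, and its gene length in base pairs gave the levels per kb. The authors' deposited table of the comparison holds a log2 fold change, a linear fold change (ratio), a mean log2 expression and a p-value with its adjusted p per gene, per the file headers.

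TMM factors and robust quasi-likelihood fits were computed with edgeR 4.0.16 (R 4.3.3), after low genes were removed by filterByExpr at a minimum of 10 counts and a total of 15. Tests were two-sided, with Benjamini-Hochberg adjustment over all genes tested and a threshold of 0.05. Log2 CPM used a prior count of 2. Permutation tests used 100000 resamples drawn with numpy 2.4.6, with ranks from scipy 1.17.1. Promoters were the 250 bases before the start in RefSeq (GRCr8), and 8 of 10 markers matched by symbol. The fits were tested on simulated counts.

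The 10 markers and all lists were chosen with earlier results of these data known. Named genes were the markers, the 2 highest and 2 lowest log2 fold changes of each list (all of a list of 4 or fewer), and the 3 genes closest to each marker; the Cd3 and untested mesothelial genes were named after their values were seen. A few genes that fall under this rule are not reported here. Alternatives were DESeq2 1.42.0, its size factors in edgeR, upper-quartile factors, library totals, a filter of CPM above 1 in 10 libraries or none, limma 3.58.1 voom with and without quality weights, runs of animal numbers, PX of BG 121 or less, the acinar score in the model, a slope on ranks of BG, and each library left out. Leaving out Sham 46, PX 44 and PX 65 together, the difference of slopes and the ratios to Pdgfrb were chosen after seeing the data. Of listed genes, Pecam1, Itgam, Ccn2, Adirf, G6pc2 and Foxd3 were not analysed here.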

Additional observations from a re-analysis of the deposited data

Results flagged for a closer look

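Among the sham levels of the 10 markers, 2 had a library far from the others by Dixon's criterion, which chance meets in about 1 of 20 groups. Pdgfra was at 4.63 log2 CPM in Sham 46, against 4.02 in the next sham library, and Vim was at 5.26 log2 CPM in Sham 46, against 4.66 in the next. Sham 46 was also the sham library with the highest macrophage sum, at 152 CPM. The PX group, with 11 libraries, was not checked in this way.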

How the results depend on the processing

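Pdgfra, Acta2, Des, Vim and Rgs5 were called higher in PX in all 37 fits, including every fit that left out 1 library. So were Fap and Mme, whose calls add no independent evidence because of how they passed the filter. The fits reuse the same 21 libraries and are not separate tests. Pdgfrb was called in 31 fits (adjusted p from 1.7e-04 to 0.289), Thy1 in 33 (8.9e-05 to 0.148) and Cspg4 in 3 (0.00283 to 0.839), and no log2 fold change changed sign. The number of markers called higher ran from 8 to 10 with 1 library left out. In the same fits 1709 to 2607 of all genes were called higher, with 13033 to 13273 genes tested. With a prior count of 0.5 the difference in mean log2 CPM of Mme was 6.12.

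Over all genes, 990 were higher with library totals, 1284 higher and 925 lower with the acinar score in the model, 1094 higher and 281 lower for PX 36 to 44, 1242 higher and 341 lower against Sham 46 to 50, 3723 lower with voom quality weights and 957 lower for PX of BG 121 or less. With 1 library left out, 1709 to 2607 were higher and 1304 to 2258 lower; the lower counts were 1378 without PX 41, 1380 without Sham 22, 1305 without Sham 24, 1304 without Sham 73 and 1341 without Sham 74. Genes with a called BG slope in PX numbered 27 with DESeq2, 6 without a filter, 35 with voom quality weights and 0 to 1 with 1 library left out, none of them a marker. The cause of these changes was not tested.

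Smooth muscle genes called higher fell to 2 with the acinar score in the model and against Sham 46 to 50, and to 3 with library totals and for PX 36 to 44; endothelial markers fell to 2 with library totals and to 4 against Sham 46 to 50. Acinar markers called higher ran from 0 to 12. Without a filter 7 T cell and 2 mesothelial markers were called higher. No paired analysis was possible because the groups share no animal numbers. The depth leaves Mme in sham near the counting limit, and Fap with 100 sham counts.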

Other observations

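Of 5 duct markers tested, Krt19 and Cftr, the chloride channel of duct cells, were higher in PX (log2 1.01 ± 0.25 and 2.61 ± 0.36, edgeR adjusted p = 0.00336 and 1.4e-05), and the others were not called; no PX library had as little Cftr as the highest sham library. The duct marker Krt7, a keratin, was at 0.002 ± 0.099 (adjusted p = 0.989). Of the Schwann cell markers tested, S100b was higher (1.6 ± 0.32, adjusted p = 5.1e-04).

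Among 6 islet hormone genes, Iapp, amylin, was higher in PX (log2 0.60 ± 0.23, edgeR adjusted p = 0.0452) and Sst, somatostatin, lower, at 429 ± 118 CPM in PX and 990 ± 259 CPM in sham (-1.21 ± 0.17, adjusted p = 1.3e-05). Ppy and Gcg were not called (0.34 ± 0.27 and -0.28 ± 0.29, adjusted p = 0.345 and 0.471). Of 6 beta cell markers 3 were lower, including Nkx6-1 and Ucn3 (-0.64 ± 0.19 and -0.46 ± 0.16, adjusted p = 0.0149 and 0.0330), and the smallest changes were Slc2a2 and Mafa, at -0.09 ± 0.17 and -0.31 ± 0.18 (adjusted p = 0.720 and 0.187). With library totals, without a filter and with limma voom, among other settings, no hormone gene was called higher.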
